A study of Danio rerio with 6 samples.

Results

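Rap1 is a small GTPase that switches between a GTP-bound active state and a GDP-bound inactive state and is known in leukocytes for the inside-out activation of integrins, the receptors with which cells hold on to matrix and to each other. Exchange factors (GEFs) load it with GTP, GTPase-activating proteins (GAPs) turn it off, and effectors such as RADIL, RASIP1 and RIAM bind its active form. In zebrafish, radil is known for its need in neural crest cell migration and adhesion. The 7 genes described here are the GTPase genes rap1aa, rap1ab and rap1b, the GEF gene rapgef1a, and the effector genes radil, rasip1 and apbb1ip, the gene of RIAM. They are 7 of the 29095 gene symbols counted, and all 7 are among the 15770 genes with enough counts to be tested. They were chosen by symbol around radil, itself selected on its high SP to nonSP fold change in these libraries, so their differences between the cell fractions are given as a description and carry no test.

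The cells came from zebrafish of the strain CG2 that carried acute lymphoblastic leukaemia (ALL), in which immature lymphocytes multiply. Tumours 1404, 1279 and 1314 were each sorted into a side population (SP), by convention the cells that pump a DNA-binding dye out, and a non-side population (nonSP), the cells that keep it. Each tumour gave 1 RNA-seq library per fraction, 6 libraries in all with n = 3 in each fraction, and the 2 libraries of a tumour form a pair. The labels name no treatment. They give neither the driver of the leukaemia nor the age of the fish, nor whether the tumours arose independently, so the spread is that between these 3 tumours. The design asks how expression differs between SP and nonSP cells. Values below are given for tumours 1404, 1279 and 1314 in that order.

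Libraries held 30213658 to 62398607 counts. Levels are counts scaled to a common library size (CPM) with TMM factors, which correct for the share of reads that a few abundant genes take; the 50 most abundant genes took 36.0% to 36.5% of SP counts and 45.8% to 52.4% of nonSP counts. Scaling by library totals alone moved the median over all tested genes from a log2 fold change of 0.09 to 1.15, a shift of 1.07, and with it the called genes went from 58.0% to 96.7% higher in SP. Differences below are therefore relative to TMM scaling unless library totals are named, and they do not separate fewer cells of a type from less RNA per cell. The labelled cell type was checked on 6 immature lymphocyte genes, whose sum was 207, 617 and 99.5 CPM in SP and 139, 748 and 148 CPM in nonSP. Of 5 tested, 1 fell in SP and 0 rose. The gene that fell was rag2, a recombinase gene of developing lymphocytes, at 30.9, 69.1 and 27.7 CPM in SP and 69.1, 209 and 83.8 CPM in nonSP. myb, a progenitor gene, was at 157, 317 and 58.5 CPM in SP and 44.0, 180 and 45.9 CPM in nonSP and did not pass. dntt had 0 and 1 counts in tumour 1279 and 334 to 713 counts in the other libraries. The tumours differed in lineage genes. The summed level of 9 T cell genes was 758 CPM in SP and 711 CPM in nonSP of tumour 1279, and 44.4 to 82.1 CPM in the libraries of the other tumours. The sum of 13 B cell genes was 4.02 and 2.93 CPM in tumour 1279 and 83.7 to 193 CPM in the others.

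Among the 7 genes radil stood out in the SP fraction, at 36.8 to 89.8 CPM against 3.07 to 24.5 CPM in nonSP. The Rap1 genes were not uniform. rap1ab was higher in SP of each tumour, rap1b in tumours 1404 and 1279, and rap1aa was nearly level in each tumour under TMM scaling. rapgef1a was higher in SP of each tumour, and apbb1ip was lower in SP of tumour 1404 and slightly higher in the other tumours. In edgeR's test, 1 of the 7 genes passed as higher in SP and 0 as lower, beside 13.0% and 9.40% of all tested genes called higher and lower. The gene that passed was radil, for which the set was chosen. At an unadjusted p below 0.05, 4 of the 7 passed in either direction, beside 5698 of all 15770 tested genes. These 4, radil among them, were all higher in SP. The 5698 were not split by direction, so no share stands beside that. radil and rap1ab both passed with limma voom, with the stricter filter and with no low-count filter. Of all genes tested there, 2233 of 15770, 1048 of 6090 and 2490 of 24670 were called higher, in that order. With library totals all 7 passed as higher and 0 as lower, as did 50.8% and 1.76% of all tested genes. SP lay above nonSP within each of the 3 tumours for 3 of the 7 genes and for 31.1% of all tested genes. Counts of passing genes over these members are thus given only for reference. The calls of radil repeat the contrast on which it was chosen, so they add no evidence.

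**Figure D1:**
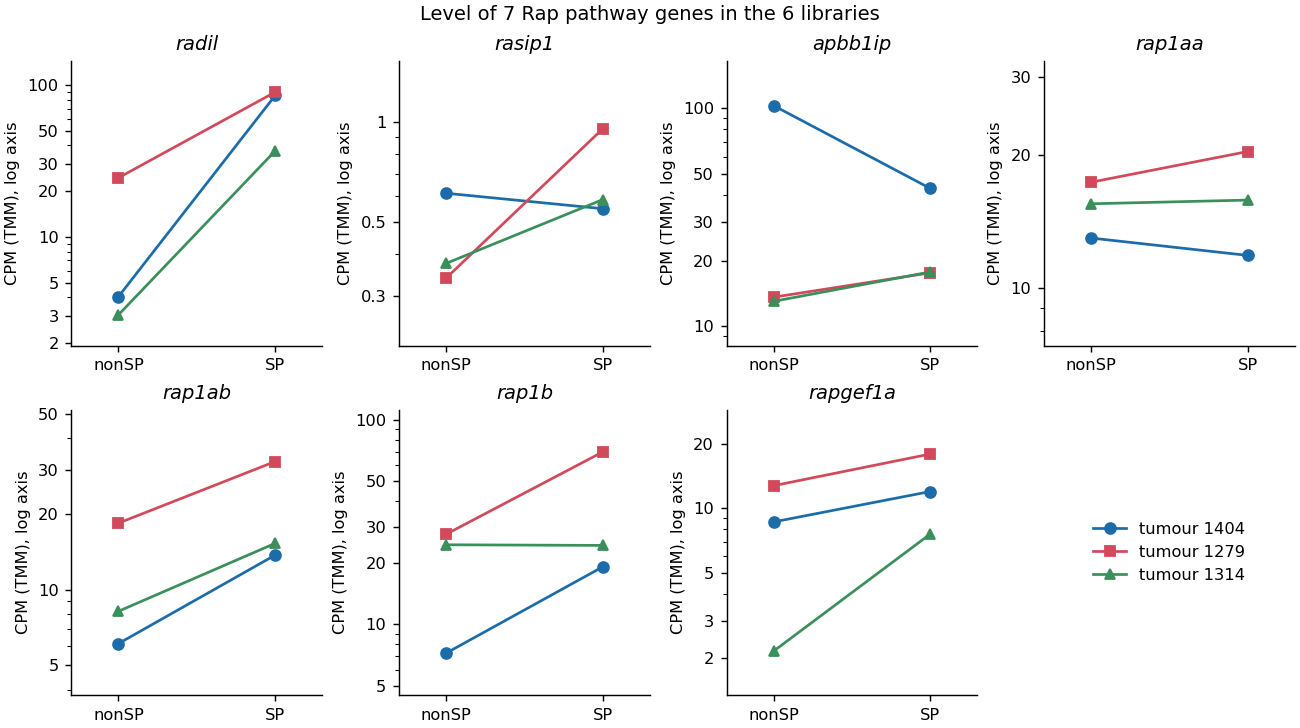
Level of each of the 7 genes (CPM with TMM factors, log axis) in the nonSP and SP libraries, with a line joining the fractions of a tumour. The lines of radil climb steeply in all 3 tumours (3.07 to 24.5 CPM in nonSP, 36.8 to 89.8 CPM in SP), while those of rap1aa are nearly flat and that of apbb1ip in tumour 1404 points down.

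The GTPase genes come first. Rap1A and Rap1B proteins are highly alike, and reads of similar copies may have been split between the 3 genes by the authors' counting, so single values are less certain than their sum. rap1aa had 799, 1318 and 1513 counts in the SP libraries and 552, 307 and 702 in the nonSP libraries. This came to 11.8, 20.3 and 15.8 CPM in SP and 13.0, 17.3 and 15.5 CPM in nonSP, and the fractions overlapped. Its fitted log2 fold change, SP minus nonSP, was 0.04 ± 0.35 (SE from edgeR, n = 3 tumours, as for the values after ± below), and the direction is not settled: it was -0.04 in DESeq2 and 1.12 with library totals.

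rap1ab reached 13.7, 32.3 and 15.3 CPM in SP and 6.11, 18.4 and 8.21 CPM in nonSP. Within each tumour SP was the higher, but nonSP of tumour 1279 lay above SP of tumours 1404 and 1314. The SP to nonSP log2 ratios of 1.16, 0.81 and 0.89 were the most even of the 4 genes that were higher in SP on the fitted scale by at least 0.90, with an SD of 0.18. The fitted difference was 0.96 ± 0.36, and 0.74 without tumour 1404.

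rap1b was at 19.1, 69.7 and 24.3 CPM in SP and at 7.23, 27.6 and 24.5 CPM in nonSP. SP was higher in tumours 1404 and 1279, with log2 ratios of 1.40 and 1.34, and the fractions of tumour 1314 were level at -0.01. The fitted difference of 0.91 ± 0.39 was 1.37 without tumour 1314, 0.71 without tumour 1279 and 0.55 without tumour 1404, so that it moved by over 1.5 times when 1404 or 1314 was left out.

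The 3 genes together stood at 44.7, 122 and 55.4 CPM in SP and at 26.3, 63.3 and 48.2 CPM in nonSP. Their sum was 1.70, 1.93 and 1.15 times as high in SP as in nonSP of the same tumour, and 3.00, 4.74 and 2.47 times with library totals. The share that each copy held of the 3 does not depend on the scaling. rap1aa held 26.5%, 16.6% and 28.5% in SP and 49.3%, 27.4% and 32.1% in nonSP. Its share was lower in SP of each tumour. The exact 95% binomial intervals, which cover counting error only, did not touch in any tumour; they came closest in tumour 1314, at 27.3% to 29.7% in SP and 30.2% to 34.1% in nonSP.

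rap1b held 42.8%, 57.0% and 43.9% of the 3 in SP and 27.5%, 43.6% and 50.8% in nonSP. Its share was higher in SP of tumours 1404 and 1279 and lower in SP of tumour 1314. rap1ab held 30.7%, 26.4% and 27.6% in SP and 23.2%, 29.1% and 17.0% in nonSP. The shares of rap1ab in tumour 1279 had overlapping intervals, 25.5% to 27.4% in SP and 26.4% to 31.8% in nonSP. These are shares of counts, not of transcripts, since counts were not corrected for gene length.

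**Figure D2:**
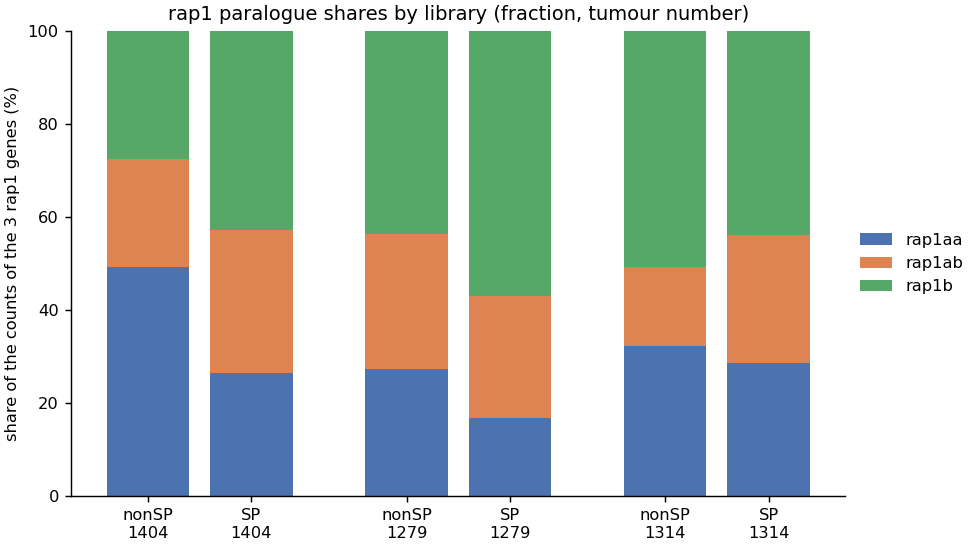
Share of each rap1 gene (percent) in the counts of the 3 rap1 genes, 1 bar per library, in nonSP and SP pairs of tumours 1404, 1279 and 1314. The bottom segment, rap1aa, is smaller in the SP bar of each pair, from 49.3% to 26.5% in tumour 1404, 27.4% to 16.6% in 1279 and 32.1% to 28.5% in 1314.

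rapgef1a is the zebrafish gene of a Rap1 GEF that Crk adaptor proteins bring to the membrane. SP libraries held 808, 1162 and 728 of its counts, or 11.98, 17.9 and 7.60 CPM, and nonSP libraries 368, 226 and 98, or 8.64, 12.8 and 2.16 CPM. SP was higher within each tumour, yet the fractions overlapped across tumours. The log2 ratios were 0.47, 0.49 and 1.80, the largest in tumour 1314. The fitted difference of 0.91 ± 0.39 was 0.48 without that tumour. Relative to the rap1 sum of the same library, which needs no scaling, rapgef1a was 0.816, 0.727 and 3.06 times as high in SP as in nonSP, so the direction of this ratio differed between the tumours.

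radil, a Rap effector gene, had 5754, 5827 and 3530 counts in the SP libraries and 172, 434 and 139 in the nonSP libraries. These are 85.3, 89.8 and 36.8 CPM in SP and 4.04, 24.5 and 3.07 CPM in nonSP. Every SP library was above every nonSP library with TMM and with library totals, beside 8.64% and 30.5% of all tested genes. The order of the levels was SP 1279, SP 1404, SP 1314, nonSP 1279, nonSP 1404 and nonSP 1314, and the first 2 of these were 89.8 and 85.3 CPM with 95% Poisson intervals of 87.5 to 92.2 and 83.1 to 87.5 that met. The last 2 also had overlapping intervals, 3.46 to 4.69 and 2.58 to 3.62 CPM. These intervals cover counting error only, since each tumour and fraction has 1 library.

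The SP to nonSP log2 ratios of radil were 4.39, 1.87 and 3.57, or 20.9-fold, 3.66-fold and 11.9-fold. Tumour 1279 had the smallest ratio and the highest levels in both SP and nonSP. The fitted log2 difference was 3.30 ± 0.47, or 9.83-fold, and ranked 90 from the top of 15770 genes. It was 2.60 without tumour 1404, 4.01 without tumour 1279 and 3.13 without tumour 1314. Relative to the rap1 sum of the same library, radil was 12.4, 1.90 and 10.5 times as high in SP as in nonSP, so the difference of radil exceeded that of the summed GTPase genes in every tumour and under any scaling.

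**Figure D3:**
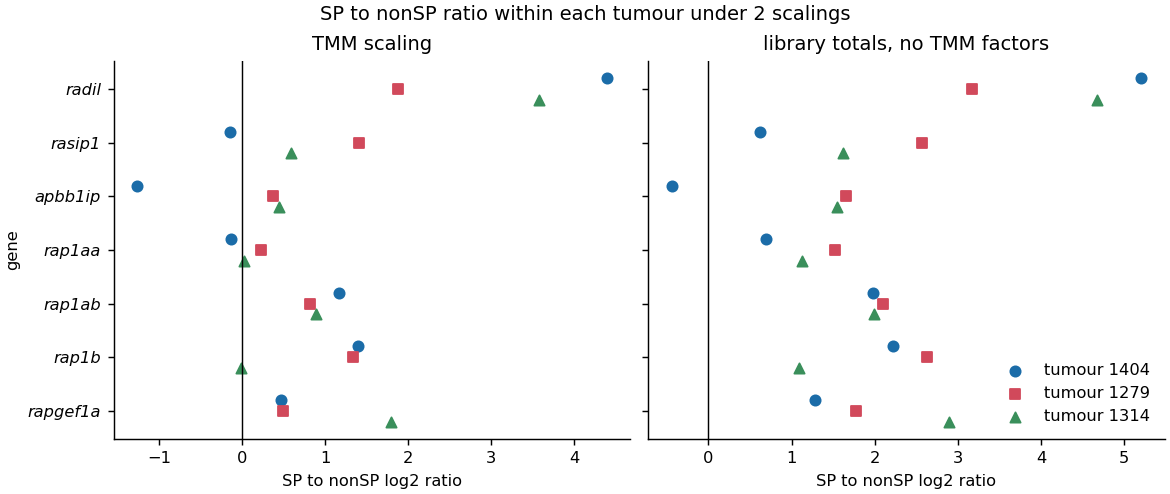
SP to nonSP log2 ratio of each gene in each tumour, with TMM scaling on the left and library totals on the right; the vertical line marks no difference. With TMM radil lies at 1.87 to 4.39, above every point of the other genes, the nearest of which is rapgef1a of tumour 1314 at 1.80. apbb1ip of tumour 1404 is at -1.26 with TMM. Library totals move every point to the right, leaving only that of apbb1ip in tumour 1404 below 0 at -0.44.

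rasip1 encodes an effector that is known in mammals to act with RADIL in Rap1 signalling of blood vessel endothelium. It was near the lower limit of what could be tested, with counts of 37, 62 and 56 for the SP libraries and of 26, 6 and 17 for the nonSP libraries. The levels were 0.549, 0.956 and 0.584 CPM in SP and 0.611, 0.339 and 0.375 CPM in nonSP, and the fractions overlapped. In tumour 1279 the Poisson intervals ran from 0.733 to 1.23 CPM in SP and from 0.124 to 0.737 CPM in nonSP. The log2 ratios were -0.15, 1.41 and 0.59 and the fitted difference 0.60 ± 0.60, or 0.25 without tumour 1279, so no difference between the fractions was detectable at this depth.

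Endothelial genes were checked beside radil and rasip1. The sum of 25 endothelial genes was 63.6, 71.8 and 19.4 CPM in SP and 63.2, 103 and 18.1 CPM in nonSP, led by fli1b, an ETS factor gene that blood cells also use. Of 13 tested, 4 rose and 2 fell. Those that rose were stab1 (11.2, 3.96 and 4.02 CPM in SP, 1.86, 0.846 and 0.463 CPM in nonSP), stab2 (4.34, 4.96 and 1.75 against 0.681, 2.14 and 0.154 CPM), sox7 (6.33, 9.09 and 3.92 against 2.35, 2.14 and 0.243 CPM) and flt4, with 41, 25 and 17 counts against 0, 1 and 3. Those that fell were fli1b (11.7, 16.8 and 4.02 against 23.3, 66.1 and 11.1 CPM) and tek (1.88, 0.570 and 1.59 against 7.07, 2.48 and 2.34 CPM). The vessel genes kdrl, cdh5, tie1 and pecam1 had 0 to 2 counts in every library, but other genes of the list were detected. Higher in SP of each tumour were robo4 (2.89, 0.185 and 0.438 against 2.04, 0 and 0.0662 CPM) and erg (3.90, 1.13 and 1.11 against 0.940, 0.621 and 0.507 CPM). etv2 was lower in SP of each (17.8, 9.88 and 1.07 against 22.1, 18.3 and 1.63 CPM). kdr, with 0 to 16 counts, was lower in SP of tumour 1404 only. None of robo4, erg, etv2 and kdr was among the genes that rose or fell. Of 12 thrombocyte genes, itga2b and mpl had 0 counts in all libraries, and the sum, led by fermt3b, was 3.78 to 31.8 CPM in SP and 4.34 to 22.2 CPM in nonSP. The summed levels of B cell, neutrophil, muscle and fibroblast genes were higher in SP of each tumour, but not those of every member. The sum of 13 B cell genes was 193, 4.02 and 101 CPM against 188, 2.93 and 83.7 CPM. Of 10 tested 1 rose and 0 fell, and pax5 was lower in SP of each tumour. The sum of 9 neutrophil genes, led by mmp9, was 20.6 to 630 CPM against 17.4 to 252 CPM, and of 5 tested 1 rose, mpx. ncf1 went from 24.2 CPM in nonSP to 16.1 CPM in SP of tumour 1314 and was higher in SP of the other tumours. The sum of 20 muscle genes, led by neb, was 51.8 to 78.5 CPM against 7.70 to 33.9 CPM, and of 9 tested 3 rose (neb, ttna and casq1a) and 0 fell, while the low levels of actc1b and mylpfb were lower in SP of each tumour. The sum of 11 fibroblast genes, led by col6a1, was 17.9 to 36.2 CPM against 5.94 to 6.86 CPM, and of 4 tested 3 rose (col6a1, dcn and lum). The sum of 25 macrophage genes, led by spi1b, was lower in SP of each tumour, at 3.92 to 18.9 CPM against 4.06 to 28.4 CPM. Of 7 tested 0 rose and 0 fell. The list holds several entries of mfap4, which did not move together. The low level of the entry mfap4 was higher in SP of each tumour. The entry MFAP4 (6 of 14) was lower in SP of each, at 1.85, 1.71 and 1.69 CPM against 7.05, 3.10 and 2.87 CPM. For 9 erythroid genes, led by epb41b, the sum was 10.004 to 32.1 CPM against 6.57 to 58.0 CPM, and of 4 tested 1 rose and 0 fell. epb41b was at 7.78 CPM in SP and 43.0 CPM in nonSP of tumour 1404 and was higher in SP of the other tumours. The part of these marker genes in the values of radil and of the other genes was not tested.

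apbb1ip encodes RIAM, which joins active Rap1 to talin, the protein that opens integrins, and is known as a gene of blood cells. The SP libraries held 2889, 1141 and 1701 of its counts and the nonSP libraries 4370, 241 and 590. In tumour 1404 it stood at 42.8 CPM in SP and at 102.6 CPM in nonSP, a log2 ratio of -1.26. In tumours 1279 and 1314 it was at 17.6 and 17.8 CPM in SP and at 13.6 and 13.0 CPM in nonSP, with log2 ratios of 0.37 and 0.45. The fitted difference was -0.14 ± 0.41 and changed sign to 0.30 without tumour 1404 and to 0.94 with library totals.

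Whether the 7 genes differed between tumours is a question that their choice did not use. It was tested in the same fit with a joint test of the tumour terms and the fraction as a covariate, which passed for 53.2% of all genes tested. Of the 7 genes 5 passed, and rap1aa and rasip1 did not. The p-values compare 3 single tumours with 2 libraries each.

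radil differed between tumours, with a mean over the fractions of 4.22, 5.55 and 3.42 log2 CPM (edgeR adjusted p = 0.00342), a span of 2.13 on the log2 scale or 4.39-fold. The median span over all tested genes was 1.62. rap1b differed (3.56, 5.46 and 4.61 log2 CPM; edgeR adjusted p = 0.00664), as did rap1ab (3.201, 4.61 and 3.49; 0.0155) and rapgef1a (3.35, 3.92 and 2.03; 0.0103). These 4 genes were highest in tumour 1279, the tumour with the highest sum of T cell genes, and the part of lineage in this was not tested. apbb1ip had another order, with 6.05, 3.95 and 3.93 log2 CPM and its highest mean in tumour 1404 (edgeR adjusted p = 4.69e-04). rap1aa (3.64, 4.23 and 3.97 log2 CPM; edgeR adjusted p = 0.465) and rasip1 (-0.70, -0.71 and -0.99; 0.857) did not pass.

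Some of these calls rested on single libraries. Without nonSP of tumour 1279 radil (edgeR adjusted p = 0.296), rap1ab (0.233) and rapgef1a (0.0614) no longer passed. Without SP of tumour 1279 the same held for rap1ab (edgeR adjusted p = 0.107) and rap1b (0.101), without nonSP of tumour 1314 for rapgef1a (0.257), and without nonSP of tumour 1404 for apbb1ip (0.0545). With no fraction term in the model apbb1ip alone of the 5 passed (edgeR adjusted p = 0.0400).

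The other genes of the pathway were taken as 2 lists written by role, not by how the genes moved, although with earlier results of these libraries known. Of 24 tested genes of Rap GTPases, GEFs, GAPs and their adaptors, 3 rose in SP, 1 fell and 20 did not pass (edgeR, adjusted over all genes), with a median log2 fold change of 0.31 beside 0.09 for all tested genes. Of 14 tested effectors and integrin activators, 3 rose, 2 fell and 9 did not pass, with a median of -0.26. Together 6 of 38 rose and 3 fell, beside 13.0% and 9.40% of all genes. With library totals 16 of the 24 and 7 of the 14 rose and 0 fell in either list, beside 50.8% and 1.76% of all tested genes. These counts with library totals were the same at an unadjusted p below 0.05. With TMM factors, 5 of the 24 rose and 4 fell at that threshold. Of the 14, 4 rose and 3 fell, beside 5698 of all 15770 tested genes that passed it in either direction.

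Among regulators, rapgef5a, a Rap GEF gene, was at 1.05, 2.004 and 1.70 CPM in SP, up from 0.164, 0.451 and 0.221 CPM, a log2 fold change of 2.59 ± 0.57 (edgeR adjusted p = 0.00257). All SP libraries were above all nonSP libraries, at a low level. nedd9, a scaffold gene of the Cas family that binds Crk adaptors, rose from 31.7, 33.2 and 3.79 CPM to 138, 43.6 and 26.5 CPM (1.79 ± 0.45, edgeR adjusted p = 0.00671). Its log2 ratios of 2.12, 0.39 and 2.79 show the smallest difference in tumour 1279, as for radil, and without tumour 1314 it did not pass (1.26, edgeR adjusted p = 0.133).

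rapgefl1, a GEF-like gene, rose from 0.470, 0.677 and 0.154 CPM to 2.33, 0.956 and 1.49 CPM (2.02 ± 0.60, edgeR adjusted p = 0.0186), and did not pass without tumour 1404 (edgeR adjusted p = 0.0763) or 1314 (0.181). RASGRP2 (2 of 2), a copy of the gene of the calcium-responsive Rap GEF of platelets and leukocytes, was the regulator that fell, from 24.7, 36.9 and 2.603 CPM to 10.1, 8.15 and 1.97 CPM (-1.30 ± 0.40, edgeR adjusted p = 0.0220). It did not pass without tumour 1279 (-0.84, edgeR adjusted p = 0.285) or with library totals (-0.23, 0.661). The other tested entry of that gene, rasgrp2, had more counts in all, 4217 against 3223. It was lower in SP of each tumour but did not pass (-0.61 ± 0.37, edgeR adjusted p = 0.248). The Crk adaptor genes crk and crkl, partners of the rapgef1a product, stood at 0.42 ± 0.41 and 0.34 ± 0.36 and did not pass.

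Among effectors, RASSF5, the gene of RAPL, which links active Rap1 to integrins in lymphocytes, rose from 18.5, 22.6 and 11.5 CPM to 69.4, 61.2 and 23.8 CPM (1.46 ± 0.38, edgeR adjusted p = 0.00761). Every SP library was above every nonSP library, with log2 ratios of 1.90, 1.44 and 1.04. It passed in edgeR with each tumour left out. tln2a, a talin gene, rose from 0.376, 5.47 and 1.01 CPM to 6.75, 15.4 and 4.34 CPM (2.48 ± 0.48, edgeR adjusted p = 9.67e-04), also with each tumour left out. tln1, the other tested talin gene, was at 58.4 to 92.3 CPM in SP and 78.3 to 160 CPM in nonSP, and its value of -0.56 ± 0.38 did not pass.

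rundc3aa, whose mouse counterpart binds Rap2, rose from 1.13, 1.41 and 0.397 CPM to 3.42, 4.08 and 2.57 CPM (1.92 ± 0.48, edgeR adjusted p = 0.00599) and did not pass without tumour 1314 (1.57, edgeR adjusted p = 0.0683). skap1, an adaptor gene that ties the T cell receptor to Rap1 and RIAM, fell from 5.24, 22.2 and 7.83 CPM to 2.09, 9.80 and 3.13 CPM, with nearly equal log2 ratios of -1.31, -1.18 and -1.31 (-1.28 ± 0.37, edgeR adjusted p = 0.0168). fermt1, a kindlin gene, fell from 0.446, 0.0564 and 6.31 CPM to 0.133, 0 and 2.05 CPM (-1.78 ± 0.60, edgeR adjusted p = 0.0359), and most of its 511 counts were in tumour 1314. Neither fall passed without tumour 1279 (edgeR adjusted p = 0.104 and 0.0815) or with library totals (-0.20 and -0.80). skap1 also did not pass without tumour 1314 (edgeR adjusted p = 0.0818), nor fermt1 without 1404 (0.0551). Without tumour 1314 fermt1 has no fitted value, so it was not called there either.

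**Figure D4:**
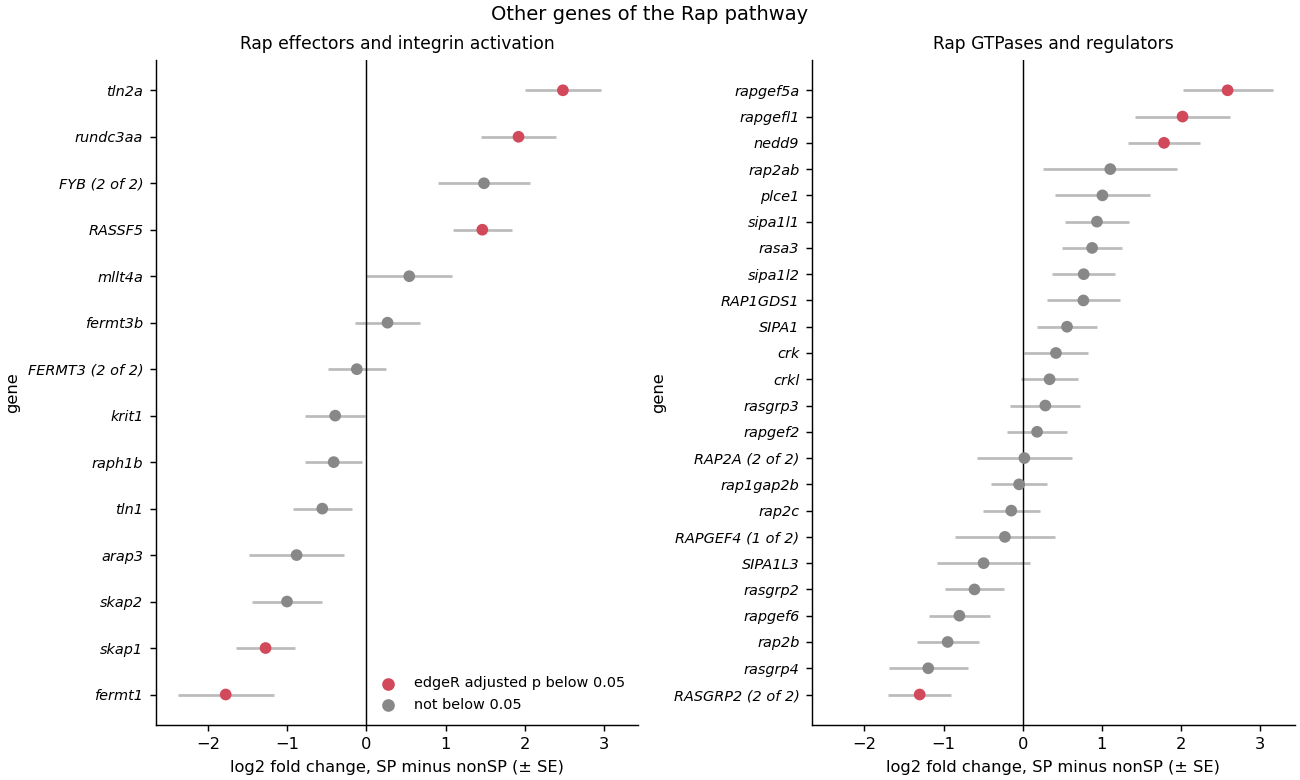
Log2 fold change, SP minus nonSP, of the 14 tested effectors and integrin activators (left) and the 24 tested GTPases and regulators (right); bars are the SE from edgeR, and red points have an adjusted p below 0.05 over all genes. The genes that passed lie at both ends, from tln2a at 2.48 to fermt1 at -1.78 and from rapgef5a at 2.59 to RASGRP2 (2 of 2) at -1.30.

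Between tumours, 22 of the 38 pathway genes passed the joint tumour test, or 57.9% beside 53.2% of all genes. Of genes picked after their values were seen, rasgrp4, a GEF gene of the RasGRP family, was at 27.4, 0.170 and 13.5 CPM in SP and 87.4, 0 and 39.7 CPM in nonSP, nearly missing from tumour 1279 (edgeR adjusted p = 1.87e-08). sipa1l1, a Rap GAP gene, had the opposite pattern, with 27.5 and 17.8 CPM in SP and nonSP of tumour 1279 and 0.211 to 1.68 CPM elsewhere (edgeR adjusted p = 1.72e-09). fermt3b, a gene of the kindlin of blood cells, was at 0.817 and 0.564 CPM in tumour 1279 and at 9.24 to 25.9 CPM elsewhere (edgeR adjusted p = 9.43e-07). The other entry of that gene, FERMT3 (2 of 2), did not pass (edgeR adjusted p = 0.112). It was at 24.0 and 20.9 CPM in SP and nonSP of tumour 1279 and at 21.1 to 50.9 CPM elsewhere.

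The genes with a profile most like that of radil over the 6 libraries were sought by the Euclidean distance of log2 CPM centred on each gene. The candidates were 5248 tested genes with an average of at least 3 log2 CPM. Symbols shaped like clone or locus names, those beginning with si and those with a copy number in brackets were left out. The 5 closest were mfsd2ab, USP31, HERC4, hspa4a and slc2a1b, at distances of 1.16, 1.19, 1.25, 1.27 and 1.38, beside a median distance of 5.10. Their correlations with radil were 0.97 to 0.99 over 6 libraries that share tumours and depth, and are high because the genes were chosen by this profile. All 5 had their lowest levels in nonSP of tumours 1404 and 1314. The glucose transporter gene slc2a1b, for example, was at 57.8, 52.9 and 31.9 CPM in SP and 4.86, 35.7 and 5.29 CPM in nonSP, so that, unlike for radil, nonSP of tumour 1279 lay above SP of tumour 1314. hspa4a, a chaperone gene, was at 869, 1103 and 388 CPM in SP and 49.98, 539 and 79.4 CPM in nonSP.

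**Figure D5:**
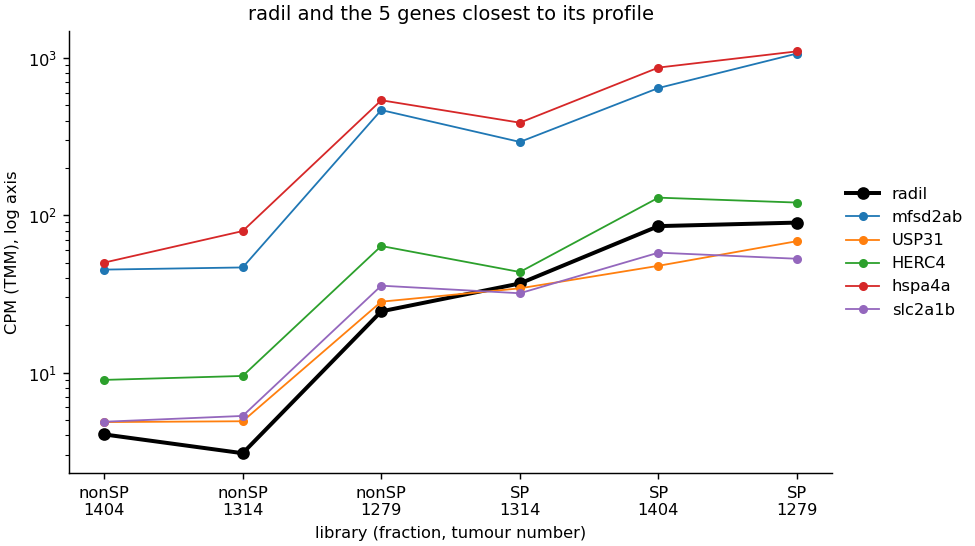
CPM (TMM, log axis) of radil in black and of the 5 genes closest to its profile, with the 6 libraries along the axis. All 6 lines are low in nonSP of tumours 1404 and 1314 and high in SP of tumours 1404 and 1279, where radil reached 85.3 and 89.8 CPM; heights of different genes are not comparable, since gene length was not corrected for.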

How the data were processed

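Raw counts per gene symbol, as deposited by the authors, were read from 6 tables of 29095 symbols. The submitters' processing notes list build GRCz10 and edgeR 3.20.7, DESeq 1.30.0, featureCounts 1.28.1, Cufflinks 2.2.1 and STAR 2.5.1b, with no role for any of them. Annotation and strandedness of the counting are unknown here, so overlapping or antisense genes cannot be told apart. Groups and tumour numbers came from the sample titles. The design text compares fractions within 3 tumours, so the numbers pair the libraries; deviations from the group means correlated at 0.753, 0.839 and 0.818 within tumours. All libraries differed beyond sampling noise, the lowest chi-square being 300.1 times its degrees of freedom.

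Counts were tested in R 4.3.3 with edgeR 4.0.16. filterByExpr by group, with a count of 10 and a total of 15 as minima, kept 99.8% or more of each library. TMM factors and glmQLFit (robust) were used with tumour and fraction as terms. The Benjamini-Hochberg adjustment ran over 15770 genes, with a threshold of 0.05. SE is the log2 fold change over the square root of F and leans on a spread shared by all genes, worth 23.2 prior degrees of freedom. Log2 ratios per tumour used a prior count of 2. Scripts were tested on simulated data. DESeq2 1.42.0 and limma 3.58.1 (voom) were alternatives.

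The members and lists were chosen with earlier results of these data known. Pathway genes named are those past the threshold, up to 8 per list, and radil's closest 5 genes. After values were seen, crk, crkl, tln1, rasgrp2, rasgrp4, sipa1l1 and fermt3b were also named. List symbols were matched without regard to case or to a copy number in brackets; 53 of the pathway genes were found, 15 of which had too few counts to test.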

Additional observations from a re-analysis of the deposited data

Results flagged for a closer look

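apbb1ip was picked out because its SP to nonSP difference went in opposite directions in different tumours under both scalings. With TMM factors its log2 ratios were -1.26 in tumour 1404, 0.37 in tumour 1279 and 0.45 in tumour 1314. With library totals its signs were the same, at -0.44, 1.66 and 1.55. The ratios of rap1aa, rap1b and rasip1 also differed in sign between tumours with TMM factors, but not with library totals. Each tumour has 1 pair of libraries, so the difference between tumours was not tested.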

How the results depend on the processing

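The count of called genes over all 15770 tested, 2047 higher and 1483 lower in SP, became 8015 and 277 with library totals, 1048 and 904 with the stricter filter, which tests fewer genes, and 0 and 0 in edgeR with no replicate block, where 1251 genes had an unadjusted p below 0.05. Leaving out a tumour gave 1141 to 1396 higher and 667 to 1685 lower genes. Of the Rap GTPases and regulators (3 higher, 1 lower), library totals called 16 and 0, the stricter filter 1 higher, and DESeq2 and limma voom 2 lower each; leaving out a tumour gave 1 to 3 higher and 1 to 3 lower. Of the effectors (3 higher, 2 lower), library totals called 7 and 0 and the stricter filter 1 and 0, with 0 lower at an unadjusted p below 0.05; leaving out a tumour gave 2 to 3 higher, and 1 lower without 1404 and 0 without 1279 or 1314. Without the block 0 genes of either list passed in edgeR, and 2 of each were higher at an unadjusted p below 0.05. Tumour differences, 8386 genes, numbered 3619 with the stricter filter, 2547 with no fraction term and 7096 to 9174 with 1 library left out, an alternative chosen after seeing the data. radil was higher in SP under every setting run (log2 2.60 to 4.37), as were rap1ab (0.74 to 2.03), rap1b (0.55 to 1.99), rapgef1a (0.48 to 1.98) and rasip1 (0.25 to 1.66). Of the 7 genes, 1 (radil, chosen on this contrast) passed in edgeR with TMM factors, its default filter and the block. With limma voom, or in edgeR with the stricter filter or no filter, 2 passed (radil and rap1ab). All 7 passed with library totals. With no replicate block 0 passed, and radil had an edgeR adjusted p of 0.590. rap1aa (-0.04 to 1.12) and apbb1ip (-0.73 to 0.94) changed sign between settings. The cause was not tested. Depth limits rasip1, which had as few as 6 counts in a library and was not tested under the stricter filter.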
